A study of Mus musculus with 124 samples.

Results

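The cell makes cholesterol from acetyl-CoA in a long chain of enzyme steps, moves it between membranes with carrier proteins and exports the excess. The genes described here are 33 named genes of that system, taken by symbol from the deposited RNA tables: 18 encode synthesis enzymes, 7 encode regulators and 8 act in transport, storage or export. The tables hold 24409 genes for the dorsal dentate gyrus (dDG), 25239 for blastocysts and 27016 for oocytes. All 33 were found in each table. After the filter on low values 33 were tested among 13874 genes in dDG, 32 among 10850 in blastocysts and 25 among 9565 in oocytes.

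The study set mice exposed to human chorionic gonadotropin (hCG), the hormone given to trigger ovulation, against unexposed mice (Ctrl). Exposed females in natural estrus received 7.5 IU of hCG into the peritoneum with no priming by PMSG, and their metaphase II oocytes were taken 14 h later. Control females in estrus were each kept with a vasectomised male, and oocytes came from plugged females on the following morning. Mating thus differed between the oocyte groups together with hCG, and the time since ovulation may have differed too. Hyaluronidase was used to strip the oocytes of cumulus cells. Blastocysts came from uterine flushes at embryonic day 3.5, and dDG came from perfused offspring aged 8 weeks. For blastocysts and dDG, hCG denotes exposure of the mother, not a dose given to the embryo or offspring. Each group held 6 oocyte, 28 blastocyst or 6 dDG libraries of polyA RNA, 80 of the 124 samples in the series. The other 44 samples, bisulfite libraries, were not analysed here. The labels give no strain, no sex of the offspring and no number of oocytes or embryos per library, and do not say whether replicates came from separate animals or litters. The p-values therefore measure the spread between these samples, which may be technical.

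In the mevalonate steps, acetyl-CoA is built up to farnesyl diphosphate. A pair of farnesyl units is joined to squalene, squalene is closed to lanosterol, and lanosterol is trimmed to cholesterol. SREBP2, the product of Srebf2, drives transcription of most of these genes when sterols are scarce, while SCAP escorts it to the Golgi and the INSIG proteins hold it back in the endoplasmic reticulum. The liver X receptors, encoded by Nr1h2 and Nr1h3, sense oxysterols and turn on export. Brain cholesterol is made within the brain, by oligodendrocytes, astrocytes and neurons, because lipoproteins of the blood do not pass the blood-brain barrier. Mouse oocytes are known to take much of their cholesterol from the surrounding cumulus cells.

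The libraries held 14991582 to 17859654 expected counts in dDG, 2379861 to 6924189 counts in oocytes and an estimated 3043230 to 10859383 reads in blastocysts. No pair of libraries of 1 material was identical. A few libraries stood apart. In dDG, hCG library 6 had 13060 CPM (counts scaled to a common library total) summed over 10 choroid plexus markers, where the other 11 libraries had 71.2 to 205. Among blastocysts, hCG libraries 1, 3, 4, 22 and 23 contained both Xist (69.4 to 165 CPM) and transcripts of the Y chromosome (126 to 173 CPM). Blastocyst Ctrl libraries 12 and 26 had the fewest detected genes (10382 and 10720), where every other blastocyst library had at least 12203. Among oocytes, Ctrl libraries 2 and 4 had the fewest counts (2379861 and 2978069). Levels are given in CPM of the library total and compared only within a gene, since CPM is not corrected for transcript length. Fold changes are hCG against Ctrl on the log2 scale, with their standard errors, so a negative value is lower in hCG. For edgeR fits the standard error was back-calculated from the fold change and the F statistic of its test. A gene was called when its p-value, adjusted by Benjamini-Hochberg over all genes tested in that table, was under 0.05.

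The start regions of 5 genes are shown first: 4 of the synthesis genes that were lower in hCG dDG, and Stard5, which was higher. They were chosen after their values were seen. RefSeq promoter windows (build GRCm38.p6) were available for 27 of the 33 genes, with no entry for Fdps, Fdft1, Sqle, Stard4, Abcg1 and Npc1. Each sequence is the 250 bases before the annotated start, read 5′ to 3′ along the gene's strand. Capitals mark the CCAAT box (CCAAT, or ATTGG where it lies on the other strand) and, in Hmgcs1, the sterol regulatory element (TCACNCCAC, N being any base), the kind of site that SREBP proteins bind.
Hmgcs1, chr13:119690101-119690350 (+ strand): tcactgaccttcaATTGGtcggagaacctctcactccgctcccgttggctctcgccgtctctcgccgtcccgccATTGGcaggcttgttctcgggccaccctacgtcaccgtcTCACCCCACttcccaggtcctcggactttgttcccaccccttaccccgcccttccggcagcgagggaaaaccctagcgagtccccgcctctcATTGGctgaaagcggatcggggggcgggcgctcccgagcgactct
Mvd, chr8:122443423-122443672 (- strand): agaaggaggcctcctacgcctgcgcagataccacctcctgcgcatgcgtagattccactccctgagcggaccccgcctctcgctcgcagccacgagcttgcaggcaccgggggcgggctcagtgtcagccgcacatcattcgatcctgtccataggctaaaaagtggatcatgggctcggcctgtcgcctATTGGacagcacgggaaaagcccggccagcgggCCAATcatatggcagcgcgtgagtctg
Idi1, chr13:8885356-8885605 (+ strand): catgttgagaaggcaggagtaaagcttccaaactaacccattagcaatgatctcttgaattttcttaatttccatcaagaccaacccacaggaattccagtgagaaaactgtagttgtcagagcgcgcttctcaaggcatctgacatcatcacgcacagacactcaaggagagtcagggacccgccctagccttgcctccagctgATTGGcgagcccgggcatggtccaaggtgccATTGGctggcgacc
Msmo1, chr8:64733579-64733828 (- strand): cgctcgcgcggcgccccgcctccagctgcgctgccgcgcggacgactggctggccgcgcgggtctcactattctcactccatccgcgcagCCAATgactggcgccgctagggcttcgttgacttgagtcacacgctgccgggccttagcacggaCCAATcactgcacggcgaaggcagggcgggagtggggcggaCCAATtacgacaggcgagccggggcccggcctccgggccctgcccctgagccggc
Stard5, chr7:83631767-83632016 (+ strand): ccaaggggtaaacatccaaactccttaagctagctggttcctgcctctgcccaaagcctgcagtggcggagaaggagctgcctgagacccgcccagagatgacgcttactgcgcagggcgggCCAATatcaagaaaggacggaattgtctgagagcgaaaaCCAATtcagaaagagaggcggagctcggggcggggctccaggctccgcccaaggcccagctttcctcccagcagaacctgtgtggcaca

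The element TCACNCCAC, searched on both strands, lay in 1 of the 27 genes with a window, Hmgcs1, from base -137 to base -129 before its start. It was found in 1.22% of all 27025 genes with a window, and in 1.05% of all 32851 promoter windows of that length. The letters CCAAT were in 21 of the 27 genes and in 37.5% of the 27025 genes of the promoter table. Among synthesis genes with a window, CCAAT lay in 5 of the 6 that fell in dDG and in 9 of the 9 others. The exception was Acat2, which fell in dDG, had 0 CCAAT matches in its window and is not printed above. The GC box (GGGCGG) was in 22 of the 27 genes against 35.4% of all genes, and the E-box CACGTG in 6 of the 27 against 6.86%. A match describes letters in the window and is not evidence of a bound site. The marked matches do not overlap one another.

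In the dDG of offspring, part of the cholesterol synthesis genes were lower after maternal hCG exposure. Of 18 synthesis genes, 8 fell and 0 rose, where 3.19% of all genes tested in dDG were called lower and 4.67% higher. All 18 had a negative fold change, as had 48.9% of all genes, and their median was -0.32 against 0.01 over all genes. With the transport genes and regulators included, 8 of 33 fell and 1, Stard5, rose by 1.09 ± 0.10. DESeq2 called 9 synthesis genes lower and 0 higher.

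Hmgcs1 encodes the cytosolic synthase that makes HMG-CoA, the second reaction of the chain. Its level ran from 164 to 231 CPM in the 6 Ctrl libraries (median 199) and from 109.8 to 158 CPM in the 6 hCG libraries (median 143). It fell by 0.54 ± 0.10 (edgeR, adjusted p = 0.00602). Every hCG library lay below the lowest Ctrl library. The gene lies on chromosome 13 at 119690351-119708260 (GRCm38.p6), and its promoter with the sterol element is the first of those printed above.

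The other called genes of the mevalonate steps behaved alike. Mvd, the decarboxylase that forms isopentenyl diphosphate, ran from 16.8 to 21.6 CPM in Ctrl (median 19.2) and from 11.97 to 15.02 CPM in hCG (median 13.5). It fell by 0.52 ± 0.09 (edgeR, adjusted p = 0.00249), and the groups did not overlap. Acat2, the cytosolic acetoacetyl-CoA thiolase that starts the chain, ran from 41.4 to 54.9 CPM (median 44.0) in Ctrl and from 27.3 to 40.2 CPM (median 33.04) in hCG. Its fall of 0.44 ± 0.09 (edgeR, adjusted p = 0.0107) again came without overlap, although the highest hCG library lay close to the lowest Ctrl library. Idi1, which converts isopentenyl diphosphate to its reactive isomer, ran from 44.4 to 52.0 CPM (median 49.5) in Ctrl and from 27.3 to 43.6 CPM (median 36.3) in hCG. It fell by 0.41 ± 0.09 (edgeR, adjusted p = 0.012), also with separate groups. In all 4 of the 7 mevalonate-step genes fell. The kinases Mvk (-0.32 ± 0.12, adjusted p = 0.123) and Pmvk (-0.20 ± 0.10, adjusted p = 0.245) and the farnesyl diphosphate synthase Fdps (-0.17 ± 0.07, adjusted p = 0.155) were not called.

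Of the 3 genes that make and close squalene, 2 fell. Sqle, the epoxidase that adds oxygen to squalene, had 39.2 to 61.4 CPM (median 45.3) in Ctrl and 28.9 to 40.9 CPM (median 32.6) in hCG, a fall of 0.47 ± 0.11 (edgeR, adjusted p = 0.0201). Fdft1, squalene synthase, had 52.7 to 81.8 CPM (median 65.1) in Ctrl and 41.2 to 56.0 CPM (median 47.4) in hCG, a fall of 0.43 ± 0.10 (edgeR, adjusted p = 0.0145). In both genes the highest hCG libraries reached into the Ctrl range. Fdft1 overlaps the cathepsin gene Ctsb in the annotation, and without stated strand the reads of such a pair can be mixed. Ctsb itself had a fold change of 0.04 ± 0.05 (adjusted p = 0.693). Lss, the cyclase that forms lanosterol, stood just outside the threshold at -0.21 ± 0.06 (edgeR, adjusted p = 0.0516), with an adjusted p of 0.0204 in DESeq2.

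After lanosterol, 2 of 8 genes fell. Msmo1, the methyl sterol oxidase, ran from 48.0 to 56.6 CPM (median 50.5) in Ctrl and from 30.7 to 42.5 CPM (median 37.6) in hCG. It fell by 0.45 ± 0.08 (edgeR, adjusted p = 0.00373), with no overlap. Dhcr7, the reductase of the last step of one branch, ran from 28.9 to 35.0 CPM (median 32.6) in Ctrl and from 22.97 to 29.1 CPM (median 25.7) in hCG. It fell by 0.30 ± 0.07 (edgeR, adjusted p = 0.0164), and 5 of 6 hCG libraries were below all Ctrl libraries. The demethylase Cyp51 (-0.31 ± 0.11, adjusted p = 0.0995) and the ketosteroid reductase Hsd17b7 (-0.34 ± 0.17, adjusted p = 0.246) were not called. The reductase Tm7sf2 and the desaturase Sc5d each had -0.13, and the smallest differences were those of the isomerase Ebp (-0.04 ± 0.11) and of the decarboxylating dehydrogenase Nsdhl (-0.06 ± 0.09). In all, 5 synthesis genes (Hmgcs1, Mvd, Acat2, Idi1 and Msmo1) were lower in hCG without overlap, as were 2.13% of all genes tested.

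**Figure D1:**
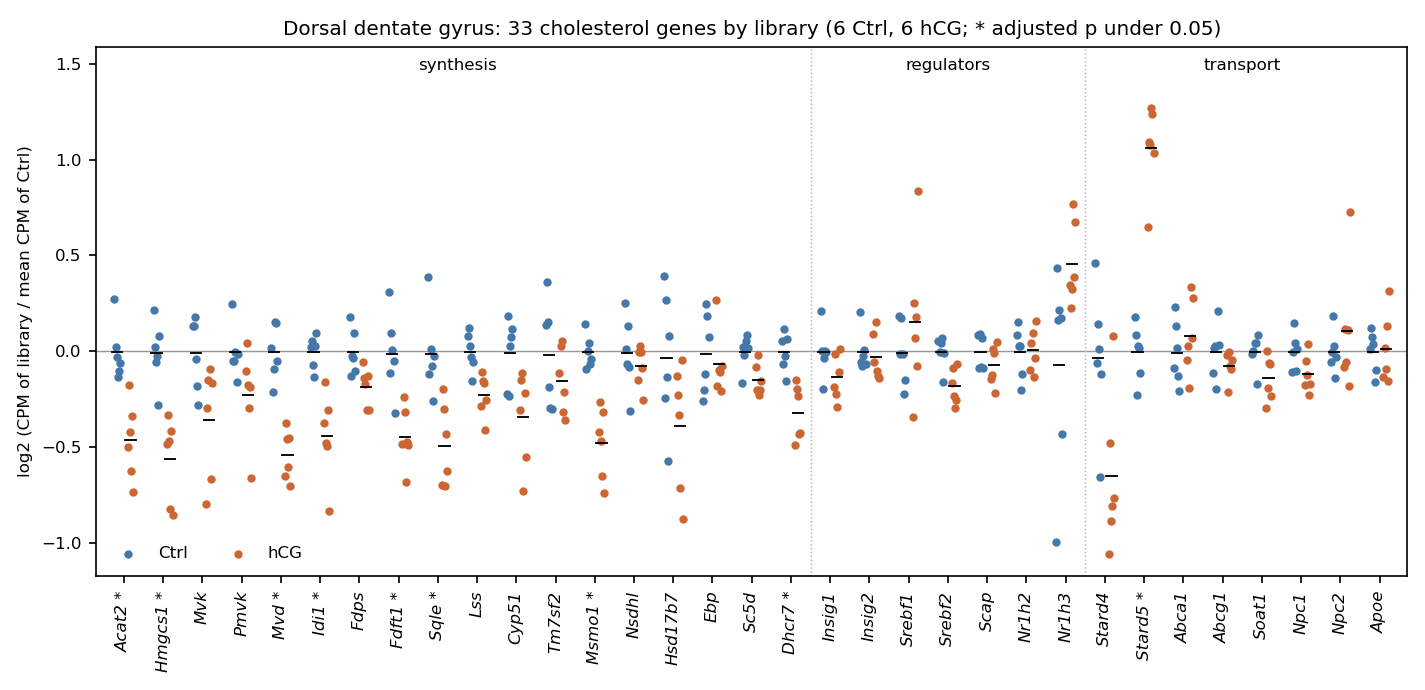
Level of each of the 33 genes in each dDG library, as log2 of its CPM over the mean of the 6 Ctrl libraries; points are libraries (blue Ctrl, orange hCG), short lines are group means and an asterisk marks an adjusted p under 0.05. Most hCG points of the synthesis genes lie below 0, and those of Stard5 lie above every Ctrl point.

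Summed over the 18 synthesis genes, the Ctrl libraries held 748 to 890.2 CPM and the hCG libraries 536 to 694 CPM. The 2 lowest sums, 536 and 551 CPM, were in hCG libraries 6 and 4. Without hCG library 6, which carried the choroid plexus transcripts, 8 genes fell and Stard5 rose, as with it. Markers of myelinating oligodendrocytes were also on the lower side in hCG. All 10 of them had a negative fold change (median -0.36, from -1.16 to -0.08), with 1, Opalin, called lower. Their summed level ran from 1243 to 3059 CPM in Ctrl and from 1184 to 2755 CPM in hCG, so those groups overlapped widely. The hCG libraries 6 and 4, lowest in the synthesis sum, were also lowest of the 12 in the oligodendrocyte sum (1184 and 1223 CPM), and hCG library 2 was the highest hCG library in both (694 and 2755 CPM). Among Ctrl libraries, number 1 had the highest synthesis sum (890.2 CPM) and the lowest oligodendrocyte sum (1243 CPM). Of 8 astrocyte markers 0 were called by edgeR (2 higher and 1 lower at an unadjusted p under 0.05), with sums of 4344 to 5595 CPM in Ctrl and 4492 to 5452 CPM in hCG. All 8 granule neuron markers had a positive fold change (median 0.335, from 0.049 to 0.593). Of these, 2 were called higher by edgeR (Glis3 and Prox1) and 3 by DESeq2, with 4 higher at an unadjusted p under 0.05. Their sums ran from 1114 to 1888 CPM in Ctrl and from 1646 to 2066 CPM in hCG. Of 8 microglia markers 7 had a positive fold change and 3 were called higher (Tmem119, C1qb and C1qa). Over all genes tested in dDG, 4.67% were called higher. The part of these cell markers in the synthesis result was not tested. In bulk tissue, fewer cells of a type and less RNA per cell cannot be told apart.

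The regulators of the pathway gave 0 calls in 7 genes by edgeR, with 1 lower (Srebf2) and 1 higher (Nr1h3) at an unadjusted p under 0.05. Srebf2 itself had 147 to 172 CPM (median 167) in Ctrl and 134 to 157 CPM (median 144) in hCG, with a fold change of -0.17 ± 0.05 (edgeR, adjusted p = 0.0721; DESeq2, adjusted p = 0.0278). Insig1, a direct target of SREBP2, had -0.12 ± 0.07 (adjusted p = 0.355) and Insig2 -0.01 ± 0.07. Nr1h3 had the largest fold change of the class, 0.49 ± 0.22 (edgeR, adjusted p = 0.183), with 1.29 to 3.47 CPM (median 2.89) in Ctrl and 3.005 to 4.38 CPM (median 3.32) in hCG. Srebf1, the paralog that drives fatty acid genes, had 0.21 ± 0.16 (adjusted p = 0.442), and its highest value, 70.0 CPM, was in hCG library 6. Scap and Nr1h2 had fold changes of -0.06 and 0.02.

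Stard5 made the largest difference of the 33 genes in dDG. It encodes a soluble START-domain carrier known to bind sterols and bile acids. Its level was 8.59 to 11.4 CPM in Ctrl (median 10.2) and 15.8 to 24.3 CPM in hCG (median 21.3), which is 2.10-fold higher in the mean. It rose by 1.09 ± 0.10 (edgeR, adjusted p = 6.37e-05), and the lowest hCG library, number 1, lay above the highest Ctrl library. Among all genes tested, 2.38% were higher in hCG without overlap. The gene lies on chromosome 7 at 83632017-83642328 (GRCm38.p6). Its related carrier Stard4, a target of SREBP2, had a fold change of the other sign, -0.59 ± 0.20, and was not called (edgeR, adjusted p = 0.0926), with 4.81 to 10.4 CPM in Ctrl and 3.64 to 8.01 CPM in hCG. The call on Stard4 turned to lower without Ctrl library 5 (-0.69 ± 0.19, adjusted p = 0.039) and without hCG library 5 (-0.78 ± 0.18, adjusted p = 0.0207).

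The other transport genes gave no call in dDG. The exporters Abca1 and Abcg1 had fold changes of 0.11 ± 0.09 and -0.06 ± 0.07, and Soat1, which esterifies cholesterol for storage, -0.12 ± 0.07. The lysosomal exporters Npc1 and Npc2 had -0.10 ± 0.05 and 0.15 ± 0.13. For Npc2 a single library, hCG 6, lay far above the rest at 83.7 CPM, where the other hCG libraries had 44.5 to 54.8 CPM. Apoe, the main apolipoprotein of the brain, had 1456 to 1773 CPM in Ctrl and 1461 to 2024 CPM in hCG, a fold change of 0.04 ± 0.07.

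The dDG table is resolved by RefSeq transcript, so the calls could be placed on transcripts. Of 42 transcripts of these genes tested, 9 were called, against 3.26% of all 18625 transcripts. Hmgcs1 is annotated with 2 tested transcripts, and both were lower: NM_001291439 fell from 112 ± 10.96 to 83.6 ± 10.7 CPM (-0.40 ± 0.09, edgeR, adjusted p = 0.0352) and NM_145942 from 87.4 ± 15.4 to 52.2 ± 12.7 CPM (-0.73 ± 0.17, adjusted p = 0.0383; SD, n = 6). Whether these 2 falls differ was not tested. For 26 of the 33 genes a single transcript was tested. Stard5 is one of these, with 1.08 ± 0.11 for its only transcript (edgeR, adjusted p = 6.25e-04). Sqle is another, and its transcript was not called, unlike the gene (-0.47 ± 0.12, edgeR, adjusted p = 0.0525).

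Of 34 other sterol genes tested in dDG, 2 rose and 1 fell, which is near the shares of 4.67% and 3.19% over all genes. The gene that fell was Vldlr, a receptor for apolipoprotein E and reelin, from 110.4 ± 6.30 CPM to 84.8 ± 2.75 CPM (SD, n = 6). Its fold change was -0.37 ± 0.05 (edgeR, adjusted p = 7.31e-04), without overlap. The 2 that rose were Lrp8, the other receptor of that kind (0.28 ± 0.07, adjusted p = 0.0235), and Mbtps1, the protease that makes the first cut in SREBP (0.19 ± 0.05, adjusted p = 0.0265). The median over the 34 was 0.02. Of 16 fatty acid synthesis genes, 3 fell and 1 rose. Acaca, acetyl-CoA carboxylase, had -0.29 ± 0.07 (adjusted p = 0.0229), the elongase Elovl6 had -0.31 ± 0.09 (adjusted p = 0.0356) and fatty acid synthase Fasn had -0.21 ± 0.06 (adjusted p = 0.0376). Thrsp, a lipogenic nuclear protein, rose by 0.29 ± 0.08 (adjusted p = 0.037). Fasn, Thrsp and Mbtps1 each lost their call in at least 8 of 17 alternative settings, and Elovl6 in 7.

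In blastocysts the calls were few and of both signs. Of 18 synthesis genes tested, 2 fell and 0 rose, and their median fold change was -0.01 against 0.03 over all genes. Of all 32 genes tested here 16 had a negative fold change, as had 46.5% of the table. Among all 32 genes tested, 3 fell (Hmgcs1, Msmo1 and Insig1) and 3 rose (Nr1h2, Soat1 and Npc2), where 7.4% of all genes in the table were called lower and 8.72% higher. The share of called genes thus lay near that of the table as a whole. Nr1h3 was too low to be tested, with 0.519 ± 0.894 CPM in Ctrl and 0.415 ± 0.582 CPM in hCG (SD, n = 28). In no gene of the blastocyst table, member or not, were the groups free of overlap (0.0%).

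Hmgcs1 was the synthesis gene with the smallest p. It had 49.8 to 187 CPM in Ctrl (median 100.3) and 29.9 to 143 CPM in hCG (median 66.5), and fell by 0.64 ± 0.15 (limma, adjusted p = 0.00262). In 23 of 28 hCG libraries it lay below the Ctrl median, and 6 were below the lowest Ctrl library. Msmo1 had 45.6 to 255 CPM in Ctrl (median 93.7) and 35.0 to 175 CPM in hCG (median 72.5). It fell by 0.38 ± 0.14 (limma, adjusted p = 0.0463), with 22 of 28 hCG libraries below the Ctrl median. This call is close to the threshold, and it ended under 4 of 9 other settings, among them the one without the 5 hCG libraries that held transcripts of both sexes (-0.36 ± 0.14, adjusted p = 0.0859). The other 16 synthesis genes were not called. They ran from -0.39 ± 0.16 for Pmvk (adjusted p = 0.0758) to 0.29 ± 0.15 for Dhcr7 (adjusted p = 0.184). With edgeR on estimated reads Pmvk was called lower (adjusted p = 0.0427). Summed over the 18 synthesis genes, the level was 662 to 2909 CPM in Ctrl (median 1484) and 985 to 2528 CPM in hCG (median 1476).

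Among the regulators, Insig1 had 49.3 to 531 CPM in Ctrl (median 129) and 31.8 to 209 CPM in hCG (median 80.1). The 531 CPM was in Ctrl library 26, which had few detected genes, and the next highest Ctrl value was 254.5 CPM in library 23. No setting left out Ctrl library 26. Insig1 fell by 0.66 ± 0.18 (limma, adjusted p = 0.0118), and 24 of 28 hCG libraries were below the Ctrl median. The call ended when the number of detected genes entered the model (-0.42 ± 0.19, adjusted p = 0.165). Nr1h2, the widely expressed liver X receptor, had 11.2 to 81.5 CPM in Ctrl (median 34.9) and 25.7 to 83.6 CPM in hCG (median 49.8). It rose by 0.47 ± 0.14 (limma, adjusted p = 0.0207), with 23 of 28 hCG libraries above the Ctrl median. That call also ended with detected genes in the model (0.39 ± 0.16, adjusted p = 0.117), without the 5 libraries of both sexes (0.40 ± 0.15, adjusted p = 0.0683) and with edgeR on estimated reads (0.37 ± 0.14, adjusted p = 0.0721). The remaining regulators Srebf1, Srebf2, Scap and Insig2 had fold changes of 0.23, -0.10, 0.21 and 0.11 and were not called.

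In the transport class, Soat1 and Npc2 rose. Soat1 had 19.6 to 152 CPM in Ctrl (median 61.7) and 27.5 to 222 CPM in hCG (median 93.1), a rise of 0.48 ± 0.16 (limma, adjusted p = 0.0395). Npc2, which hands cholesterol to Npc1 in the lysosome, had 300.5 to 764 CPM in Ctrl (median 543) and 402 to 908 CPM in hCG (median 653), a rise of 0.25 ± 0.08 (limma, adjusted p = 0.0332). In both genes the groups overlapped over most of their range, and 22 and 24 of 28 hCG libraries were above the Ctrl median. Each call ended under 3 of 9 other settings. That on Soat1 ended with no low-value filter (adjusted p = 0.07), with the replicate block (0.0622) and with detected genes in the model (0.0905). That on Npc2 ended with edgeR on estimated reads (adjusted p = 0.054), with the replicate block (0.057) and without the 5 libraries of both sexes (0.0905). Npc1, the partner of Npc2, had -0.29 ± 0.13 and was not called (limma, adjusted p = 0.127), with 26 of 28 hCG libraries below the Ctrl median. It was called lower under 2 of 9 other settings, edgeR on estimated reads and detected genes in the model (smallest adjusted p 0.0258). Npc1 overlaps Rmc1 in the annotation, which was called higher (0.32 ± 0.10, adjusted p = 0.0305). The exporter Abca1 had -0.45 ± 0.19 (adjusted p = 0.0923). Stard5, so different in dDG, had 1.31 to 21.9 CPM in Ctrl (median 9.80) and 2.69 to 24.4 CPM in hCG (median 12.4), a fold change of 0.13 ± 0.19 (adjusted p = 0.691). Leaving out hCG libraries 1, 3, 4, 22 and 23, 2 genes fell and 1 rose: Hmgcs1, Insig1 and Soat1 kept their calls.

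**Figure D2:**
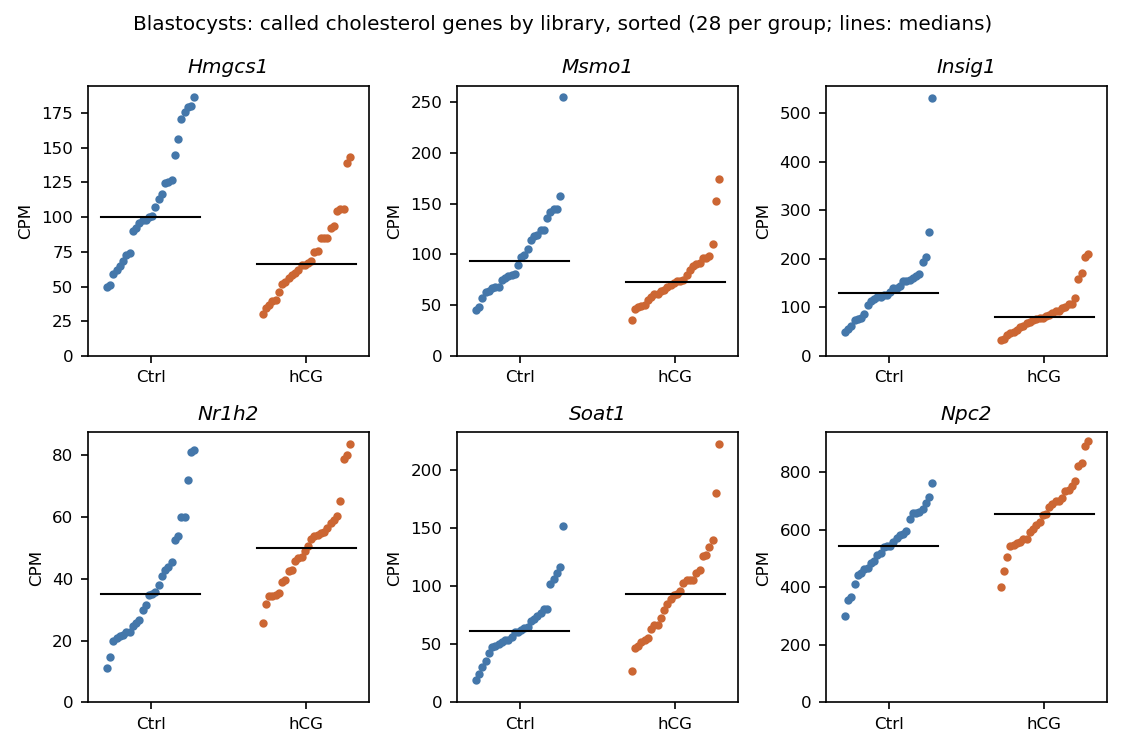
CPM of the 6 genes called in blastocysts, each library a point, sorted within its group (28 Ctrl in blue, 28 hCG in orange), with a line at the group median. The medians of Hmgcs1, Msmo1 and Insig1 are lower in hCG and those of Nr1h2, Soat1 and Npc2 higher, while the ranges overlap in all 6.

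Markers of the blastocyst lineages were measured in the same libraries. The trophectoderm list summed to 1701 to 11950 CPM in Ctrl and 2211 to 8520 CPM in hCG, with 1 of 8 genes lower (Eomes). The list for inner cell mass and epiblast summed to 140.1 to 729 CPM and 172 to 775 CPM, with 1 of 7 higher (Nanog). The primitive endoderm list gave 1 higher (Amn) and 1 lower (Lrp2) of 8. Of 10 uterine, stromal and blood markers Col3a1 and Hbb-bs were at 0 in all libraries, the sum was 9.21 to 139 CPM in Ctrl and 11.8 to 220 CPM in hCG, and 1 of 4 tested genes (H2-Ab1) was higher. The number of detected genes was also higher in hCG libraries (median 13591) than in Ctrl libraries (median 13144). The part of lineage make-up in these results was not tested. Of 29 other sterol genes tested in blastocysts, 1 fell and 1 rose, where 7.4% of all genes were called lower and 8.72% higher. Osbp, an oxysterol-binding transfer protein, fell by 0.50 ± 0.12 (limma, adjusted p = 0.00406) and the lipoprotein receptor Scarb1 rose by 0.60 ± 0.20 (adjusted p = 0.0347). The call on Scarb1 ended under 3 of 9 other settings, edgeR on estimated reads among them (adjusted p up to 0.303 over the settings), and that on Osbp under 1. Of 14 fatty acid genes, Pnpla3 rose by 0.95 ± 0.23 (adjusted p = 0.00425) and 0 fell by limma (0 also at an unadjusted p under 0.05, and 0 by edgeR).

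With 28 libraries per group, it could be asked whether the synthesis genes varied together from library to library. Hmgcs1 was set against each of the other 17 synthesis genes and Insig1, on log2(CPM + 1), apart in Ctrl and in hCG, which gives 36 relations. Msmo1 followed Hmgcs1 most closely, with Pearson's r of 0.75 (Spearman's rho 0.80) in Ctrl and 0.55 (rho 0.46) in hCG. The permutation p-values, adjusted over the 36, were 7.20e-04 and 3.60e-04 in Ctrl and 0.0174 and 0.0489 in hCG. Without the 2 libraries farthest from the median of Hmgcs1, r was 0.70 and 0.41. Sqle had r of 0.69 in Ctrl and 0.54 in hCG (rho 0.71 and 0.54, permutation test, adjusted p for r 0.00126 and 0.0186), and 0.59 and 0.46 without those libraries.

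At the other end, the isomerase Ebp showed no such relation, with r of -0.01 in Ctrl and -0.15 in hCG. In Ctrl, 17 of 18 relations were positive with a median r of 0.34, and 6 passed by Pearson and 8 by Spearman. In hCG, 17 of 18 were positive with a median r of 0.30, and 3 passed by Pearson and 2 by Spearman. The median r of Hmgcs1 with all 10849 other genes was 0.05 in Ctrl and -0.02 in hCG. The 5th to 95th percentiles of r over those genes were -0.255 to 0.334 in Ctrl and -0.356 to 0.368 in hCG. The hCG median over the 18 lay inside that range, and the Ctrl median lay at its upper end. The shares of all genes that were positive or passed are not given here. Without the 2 farthest libraries the medians over the 18 were 0.35 and 0.21. The difference between the groups was not tested, and libraries share depth and scaling.

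**Figure D3:**
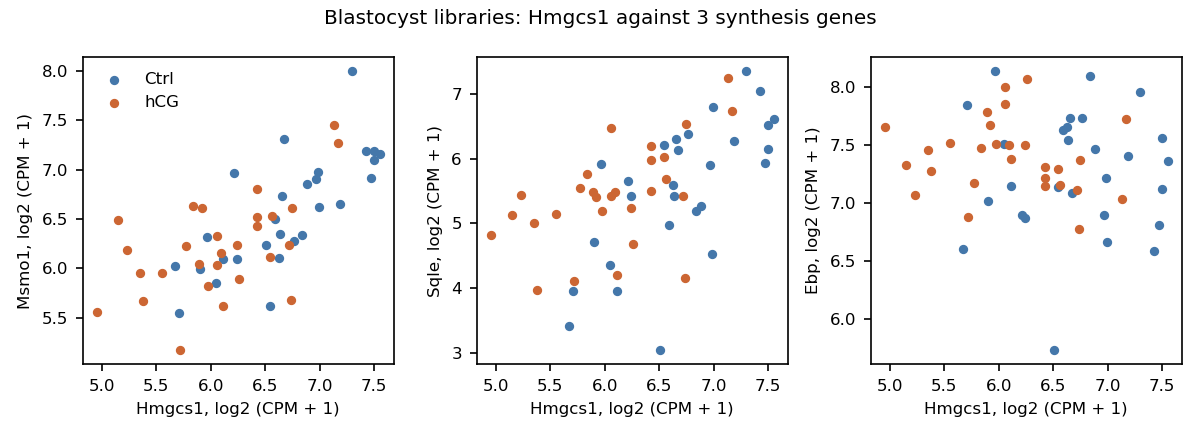
Level of Hmgcs1 against Msmo1, Sqle and Ebp in the blastocyst libraries, all as log2(CPM + 1); each point is a library (28 Ctrl in blue, 28 hCG in orange). The 3 genes were chosen after their values were seen: Msmo1 and Sqle rise with Hmgcs1 (r of 0.75 and 0.69 in Ctrl), and Ebp does not (-0.01).

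Several synthesis genes were too low in oocytes to be compared. Of the 18 synthesis genes 12 passed the low-count filter, of the regulators 6 of 7 and of the transport genes 7 of 8. Mvk and Nr1h3 had 0 counts in all 12 libraries, which allows up to 0.112 CPM in Ctrl and 0.104 CPM in hCG (3 counts of the group's total, counting error only). Pmvk, Mvd and Fdps had 2 to 6 counts in each group of 6 libraries, and Tm7sf2, Ebp and Abca1 were also too low to be tested. By contrast Hmgcs1 had 488 to 769 CPM (median 590.3) in Ctrl and 234 to 603 CPM (median 507) in hCG.

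None of the synthesis genes or regulators was called in oocytes. In edgeR 0 of 12 synthesis genes and 0 of 6 regulators passed, 0 also passed at an unadjusted p under 0.05, and DESeq2 called 0. Hmgcs1 had the smallest p, with a fold change of -0.36 ± 0.17 (edgeR, adjusted p = 0.269). Acat2 had the largest fold change of its class, 0.82 ± 0.51 (adjusted p = 0.405), on 0.578 to 5.04 CPM (median 1.86) in Ctrl and 1.62 to 5.95 CPM (median 3.28) in hCG. Insig2 had the largest among the regulators, -0.34 ± 0.49 (adjusted p = 0.759), with 1.26 to 6.45 CPM (median 3.72) in Ctrl and 0.793 to 5.73 CPM (median 2.85) in hCG. The standard error of Acat2 was 0.51 in oocytes and 0.09 in dDG, so for such low genes changes of the size seen in dDG were not detectable there.

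The 2 genes called in oocytes, of 25 tested, were both transport genes and both lower, where 2.67% of all genes were called lower and 1.33% higher. Stard5 had 20.6 to 51.6 CPM in Ctrl (median 41.3) and 12.3 to 22.5 CPM in hCG (median 18.3). It fell by 1.13 ± 0.22 (edgeR, adjusted p = 0.00463), and 5 of 6 hCG libraries were below all Ctrl libraries. The lowest Ctrl library, number 2, was also the shallowest of the 12. Npc2 had 50.3 to 80.6 CPM in Ctrl (median 60.6) and 27.3 to 57.6 CPM in hCG (median 40.2), and fell by 0.67 ± 0.18 (edgeR, adjusted p = 0.0429). Again 5 of 6 hCG libraries were below every Ctrl library. None of the 25 genes was free of overlap between groups, where 1.9% of all genes were lower without overlap and 1.13% higher.

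The Stard5 call held under all 18 other settings, with adjusted p up to 0.0175. That on Npc2 ended under 10 of 18, with adjusted p up to 0.112. Without Ctrl libraries 2 and 4 both stayed called, Stard5 at -1.27 ± 0.21 (adjusted p = 0.00167) and Npc2 at -0.72 ± 0.20 (adjusted p = 0.0453). Stard4 had -0.39 ± 0.26 (adjusted p = 0.442) and Apoe -0.40 ± 0.39 (adjusted p = 0.641), on 3.48 to 10.7 CPM in Ctrl and 1.92 to 10.5 CPM in hCG. Of 11 markers of cumulus and granulosa cells, Fshr, Ptx3 and Foxl2 were at 0 in all libraries, and the summed level was 13.7 to 22.3 CPM in Ctrl and 16.8 to 24.5 CPM in hCG. Of 10 oocyte markers 8 had a negative fold change (median -0.41), as had 49.3% of all genes. By edgeR 2 of them, Mos and Zp3, were called lower, where 2.67% of all genes were. DESeq2 called 3 lower, and 6 were lower in edgeR at an unadjusted p under 0.05. The summed level of the 10 oocyte markers was 7983 to 12210 CPM in Ctrl and 6616 to 9212 CPM in hCG. The part of both lists in the calls on Stard5 and Npc2 was not tested. Of 19 other sterol genes and 6 fatty acid genes tested in oocytes 0 were called by edgeR, with 2 higher and 2 lower at an unadjusted p under 0.05. DESeq2 called 0 of the other sterol genes and 1 fatty acid gene, which was lower.

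**Figure D4:**
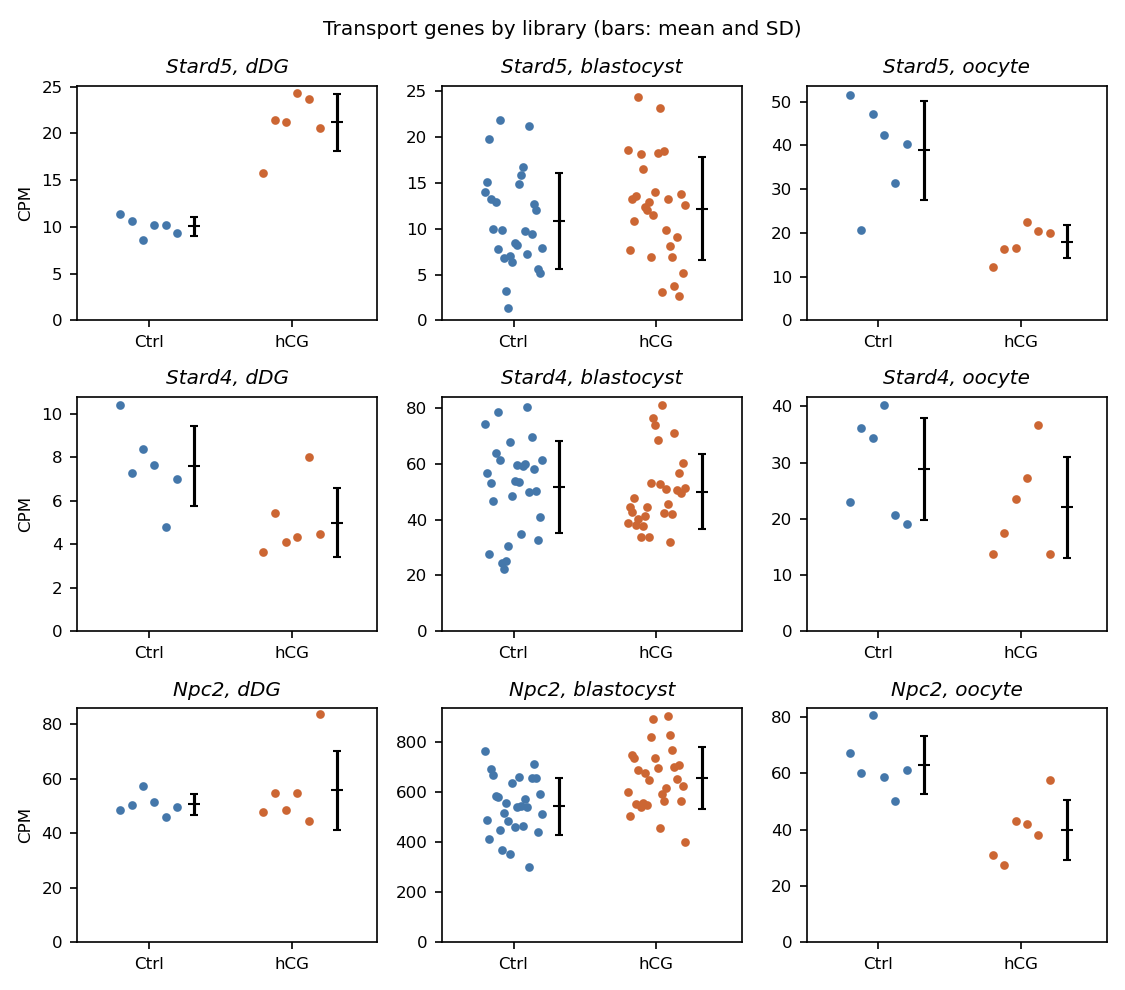
CPM of Stard5, Stard4 and Npc2 in each library of the 3 materials; points are libraries (blue Ctrl, orange hCG), and the bar beside each group is its mean with SD. Stard5 is higher in hCG in dDG and lower in hCG in oocytes, and Npc2 is lower in hCG oocytes and higher in hCG blastocysts.

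Whether hCG was linked to different changes in the 3 materials was tested gene by gene, as the difference of the log2 fold changes from limma fits on log2(CPM + 1), adjusted over all genes tested in both tables. Stard5 differed in all 3 pairs. Its fold change in dDG minus that in oocytes was 2.03 ± 0.24 (adjusted p = 4.13e-06), dDG minus blastocyst was 0.87 ± 0.21 (adjusted p = 0.00502), and blastocyst minus oocyte was 1.16 ± 0.29 (adjusted p = 0.00655). Npc2 differed between dDG and oocytes (0.78 ± 0.22, adjusted p = 0.0284) and between blastocysts and oocytes (0.92 ± 0.20, adjusted p = 0.00373). The 3 materials also differ in library method, depth and age, and the oocyte contrast holds the unmatched mating.

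Between dDG and blastocysts, 5 of 32 genes differed, where 11.3% of 9341 genes did. Besides Stard5 these were Acat2 (-0.54 ± 0.17, adjusted p = 0.0305), Dhcr7 (-0.59 ± 0.17, adjusted p = 0.0136), Soat1 (-0.60 ± 0.18, adjusted p = 0.0202) and Nr1h2 (-0.46 ± 0.16, adjusted p = 0.0498), all as dDG minus blastocyst. The call on Nr1h2 ended under both other settings tried. Hmgcs1 and Msmo1, the 2 synthesis genes called lower in both materials, had differences of 0.09 ± 0.18 (adjusted p = 0.79) and -0.09 ± 0.16 (adjusted p = 0.773). Mvd, called in dDG and not in blastocysts, had a difference of -0.49 ± 0.20 that did not pass (adjusted p = 0.0926), and Idi1 one of -0.20 ± 0.16 (adjusted p = 0.45). Between dDG and oocytes 2 of 25 differed (5.53% of 7669 genes), and between blastocysts and oocytes 3 of 25 (12.4% of 7178), the third being Insig1 (-0.78 ± 0.26, adjusted p = 0.0345).

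**Figure D5:**
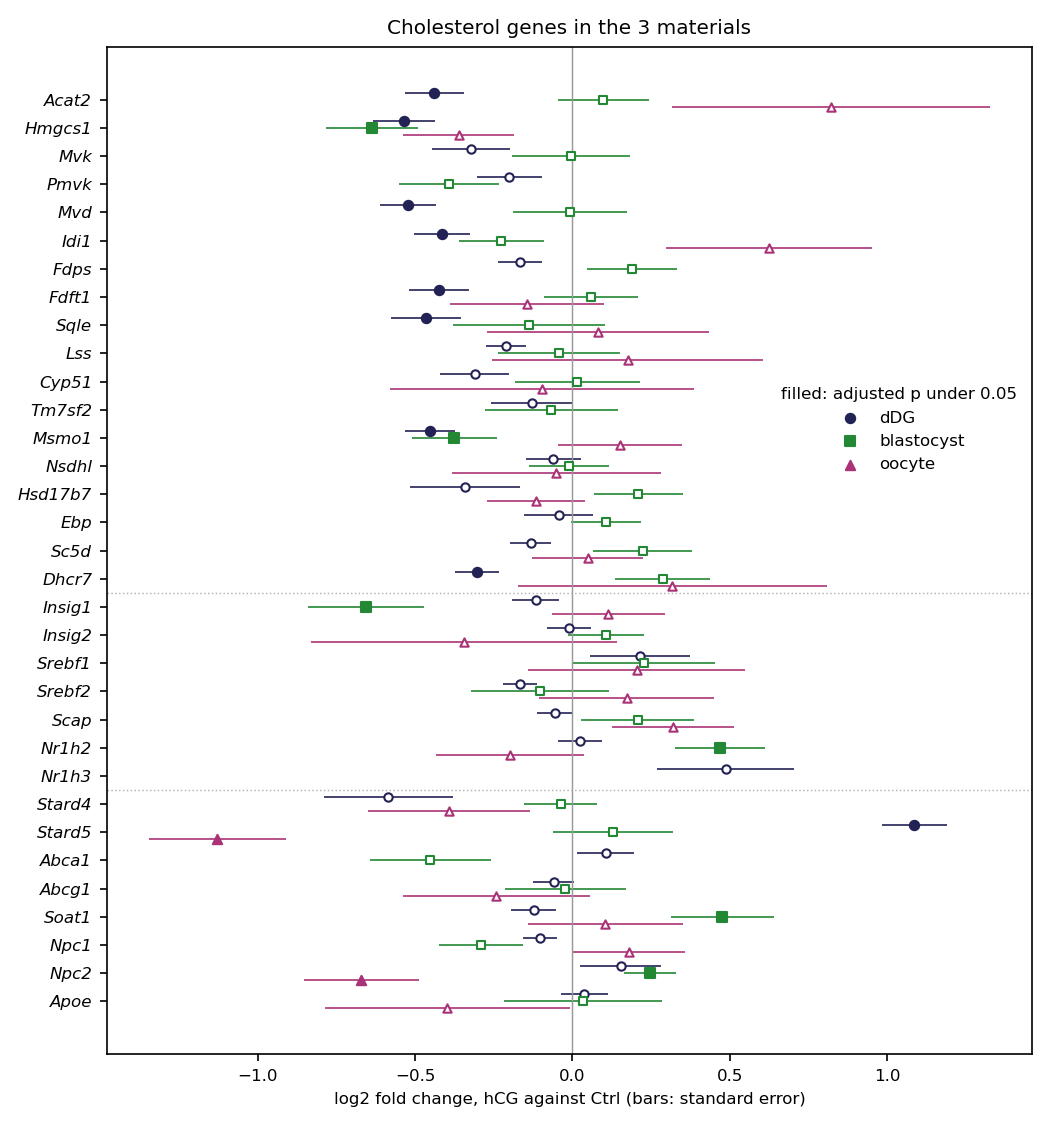
Log2 fold change of each gene, hCG against Ctrl, with its standard error, in dDG (circles), blastocysts (squares) and oocytes (triangles); filled symbols have an adjusted p under 0.05, and dotted lines part synthesis, regulator and transport genes. All 18 synthesis genes lie left of 0 in dDG, while those of blastocysts and oocytes lie on both sides.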

How the data were processed

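RNA tables of 80 libraries were used. The deposited values for oocytes are whole-number counts per gene symbol. The deposited dDG table holds expected counts per RefSeq transcript, which were summed by gene and rounded. The deposited blastocyst table holds a signal: estimated counts times a factor per library, with 89.0% to 93.35% of a library's values whole multiples (tolerance 0.005) of a step from 39.29 to 244.49. Deposited blastocyst totals ran from 202452948 to 1218752121. Each was divided by its step to estimate reads, and by its total for CPM. Per the submitters' processing notes, the tools included Trim Galore 0.6.4, Trimmomatic 0.32, STAR 2.7.6a, SAMtools 1.19.1 and HTSeq 0.12.4, and the genome builds were mm10 and GRCm38. Which tool made which table, and whether strand was used in counting, is not given in the sources used here. Date-like symbols in the oocyte and dDG tables (24 and 25) were not read.

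The 33 genes and all lists were chosen with earlier results of these data known. Named genes were all called members and, where a class had none, its largest fold change; of other pathway lists, called genes only. Counts and rounded expected counts went into edgeR 4.0.16 (quasi-likelihood F test with robust fitting, TMM, at least 10 counts and 15 in total) in R 4.3.3. Blastocyst values were tested with limma 3.58.1 (trend, robust) on log2(TMM-normalised CPM + 1), so fold changes of low genes are understated. All genes of a table were fitted and adjusted together, two-sided, and the scripts were tested on simulated data. Differences between materials were Wald tests of limma fold changes. Correlations used 100000 permutations. Alternatives were DESeq2 1.42.0, other scalings, filters and pseudocounts (0.5 and 5), a replicate block, and left-out libraries. Gene positions and promoters came from RefSeq tables of GRCm38.p6. Of the 33 genes, 11 overlap another annotated gene, 5 of them a protein-coding one. Results for some genes are not reported here.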

Additional observations from a re-analysis of the deposited data

Results flagged for a closer look

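Among 116 groups of 6 dDG or oocyte libraries, 12 had 1 library far from the rest of its group. Chance alone gives about 1 in 20 groups. In dDG, Ctrl library 1 was the distant one in 4 genes, on the high side each time: Acat2 at 54.9 CPM, Pmvk at 31.5 CPM, Sqle at 61.4 CPM and Insig2 at 62.8 CPM. Without that library 8 of the 33 genes were lower and 1 higher, as with it. Ctrl library 5 was low in Srebf2 (147 CPM), hCG library 1 high in Ebp (23.6 CPM) and hCG library 6, the library with choroid plexus transcripts, high in Npc2 (83.7 CPM).

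In oocytes, Ctrl library 4 was high in Acat2 (5.04 CPM) and Lss (8.73 CPM). Ctrl library 3 was high in Nsdhl (12.4 CPM), hCG library 1 in Idi1 (18.2 CPM) and hCG library 2 in Abcg1 (117 CPM). None of these 5 genes was called in oocytes.

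The change with hCG differed between materials by the test of the difference in 7 genes (limma fold changes, adjusted p under 0.05). As dDG minus blastocyst, the differences were -0.54 for Acat2, -0.59 for Dhcr7, -0.46 for Nr1h2, -0.60 for Soat1 and 0.87 for Stard5. As dDG minus oocyte they were 2.03 for Stard5 and 0.78 for Npc2. As blastocyst minus oocyte they were 1.16 for Stard5, 0.92 for Npc2 and -0.78 for Insig1.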

How the results depend on the processing

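In dDG the count of lower genes, 8, was 6 to 11 over 17 other settings, and that of higher genes stayed at 1 (Stard5). Leaving out 1 library gave 8 to 11 lower. In blastocysts (3 lower, 3 higher), edgeR on estimated reads gave 5 lower and 1 higher. Deposited values without scaling gave 0 lower and 10 higher; there the median over all genes was 0.49, Msmo1 turned to 0.05, and the 3 genes called lower lost their calls. The number of higher genes was 1 with the number of detected genes as a covariate and 1 without hCG replicates 1, 3, 4, 22 and 23. In oocytes (2 lower, 0 higher), library totals only and no low-count filter each gave 1 lower, Npc2 losing its call (adjusted p = 0.0597 and 0.0558), and leaving out 1 library gave 1 to 2. Without Ctrl library 1, 2, 3 or 6 or hCG library 1, 2, 4 or 5 the count was 1.

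The labels do not say whether replicate numbers pair Ctrl with hCG samples. Same-numbered libraries deviated together (correlation over 0.1) in 1 of 6 dDG, 2 of 6 oocyte and 3 of 28 blastocyst pairs. Of these pairs 0, 2 and 1 correlated best with their own number. Low correlations cannot show that the samples were unpaired. With the replicate block, dDG gave 6 lower and 1 higher (without Sqle and Dhcr7), oocytes 2 lower and 0 higher, and blastocysts 3 lower and 1 higher.

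Depth limits low genes most: 8 of 33 genes in oocytes and 1 in blastocysts were too low to test. Levels are relative to each library's total.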
